A study of Homo sapiens with 12 samples.

Results

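The cytosolic ribosomal proteins were taken as every gene of the deposited table whose symbol was RPL or RPS with a number, with the letter A or X where one follows, or was RPLP0, RPLP1, RPLP2 or RPSA. The rule found 77 genes among 63086, 46 of the large subunit and 31 of the small subunit. All 77 reached the mean normalised count of 10 that the test required, as did 15987 genes in all.

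The cytosolic ribosome translates nuclear mRNA. Its small subunit reads the message and its large subunit joins amino acids, and most ribosomal proteins occupy a set place on the ribosomal RNA. Cells make these proteins in matched amounts, mostly from short abundant mRNAs that begin with a run of pyrimidines, the 5′ TOP motif through which mTOR and LARP1 control their translation. In cancer cells ribosome production usually follows growth rate, and free RPL5 and RPL11 can bind the ubiquitin ligase MDM2.

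RNA was sequenced from MIA PaCa-2, an established human pancreatic carcinoma line, with 4 lines of 3 biological replicates each and so 12 libraries. WT was the unmodified line. CRISPR Control had passed through the editing procedure, and its genotype is given as WT with a silent point mutation. TIMP1 KO 1 and TIMP1 KO 2 were edited in exon 4 of TIMP1, which encodes a secreted inhibitor of metalloproteinases, with guides to different regions of that exon. The lines shared RPMI 1640 medium with 10% FCS and 1% P/S. Each edited line was a single line, so a difference between lines holds whatever distinguishes these populations, and its p-value measures the spread between cultures of 1 line and not between independent edits.

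Depth ran from 26908701 to 36093563 reads in genes per library. TIMP1 itself was at 3837, 3290.2 and 3532 normalised counts for WT, at 2285, 2826 and 2959 for CRISPR Control, at 1562, 1624 and 1613 for KO 1 and at 1136, 1192 and 1155 for KO 2. The knockout libraries were below all others and kept 45.0% and 32.7% of the WT mean, and CRISPR Control lay between them and WT. VIM, ZEB1, KRT8 and KRT18 were expressed in every library, and CDKN2A, which is deleted in MIA PaCa-2, was at 0 in all 12. The epithelial gene CDH1 lay between 68.6 and 1487 and EPCAM, also epithelial, between 1199 and 2226 normalised counts. The leukocyte gene PTPRC did not exceed 7.46 and the endothelial gene PECAM1 17.2, and the stromal gene PDGFRB lay between 8.57 and 64.8. In bulk RNA from a line, a change in every cell and a change in a subset of cells cannot be told apart, and the scaling of the deposited values sets the typical gene equal between libraries.

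The annotated starts of a few members are shown because the pyrimidine run is what these mRNAs share. Sequences are RefSeq promoter windows of GRCh38.p14, from 20 bases before to 10 bases from the annotated start, 5′ to 3′ on the gene's strand. Capitals mark a C followed by at least 5 bases that are C or T, searched on the gene's strand only. The first 4 genes rose in CRISPR Control, RPSA, RPL14, RPLP1 and RPS6 fell in KO 2, and RPS13 and RPL41 showed no call in KO 2.
RPL14, chr3:40457319-40457348, plus strand: gggttgggcgggtCTTCTTCCTTCTCgcct
RPL37A, chr2:216498824-216498853, plus strand: cctgcgcaccgcgtCTCTTCCTTTCTgggc
RPL38, chr17:74203658-74203687, plus strand: ccggaaacggaagtctcgttCTTTTTCgtc
RPSA, chr3:39406700-39406729, plus strand: cgtcatttcctgccgcctgtCTTTTCCgtg
RPLP1, chr15:69452798-69452827, plus strand: gctgcgtataggcgcgagagCCCCTTTCCT
RPS6, chr9:19380227-19380256, minus strand: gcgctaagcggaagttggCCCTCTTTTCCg
RPS13, chr11:17077658-17077687, minus strand: ggcgtttccactctcgCTCTCCTTTCgttg
RPL41, chr12:56116613-56116642, plus strand: gtagacggaacttcgCCTTTCTCTCggcct
Of the 62 members that matched an entry by symbol, 53 (85.5%) held such a run at any of their annotated starts, against 29.4% of all genes in the table of promoters, and a match describes these letters without showing which start the cells used. The median log2 fold change against WT was 0.27 for the 53 and 0.32 for the other 9 in CRISPR Control, and -0.26 and -0.25 in KO 2. The difference between these medians was not tested.

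Reads in the 77 genes made up 4.91%, 4.44% and 4.38% of the reads of the WT libraries. They made up 4.86%, 6.18% and 5.60% of the CRISPR Control reads, 4.74%, 4.94% and 4.59% of the KO 1 reads and 3.83%, 4.05% and 4.19% of the KO 2 reads. The 3 KO 2 libraries held the lowest shares of the 12, below every library of the other lines. CRISPR Control replicates 2 and 3 held the highest shares, and its replicate 1 lay within the range of WT. Mean shares were 4.58% ± 0.291, 5.55% ± 0.661, 4.76% ± 0.176 and 4.02% ± 0.179 (SD, n = 3) in that order. The mitochondrial genome's share of reads was lowest in CRISPR Control and highest in KO 2, with means of 0.565% for CRISPR Control, 0.686% in WT, 0.868% in KO 1 and 1.06% in KO 2. Its part in the results was not tested. The WT and KO 1 libraries overlapped in their ribosomal protein share.

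**Figure D1:**
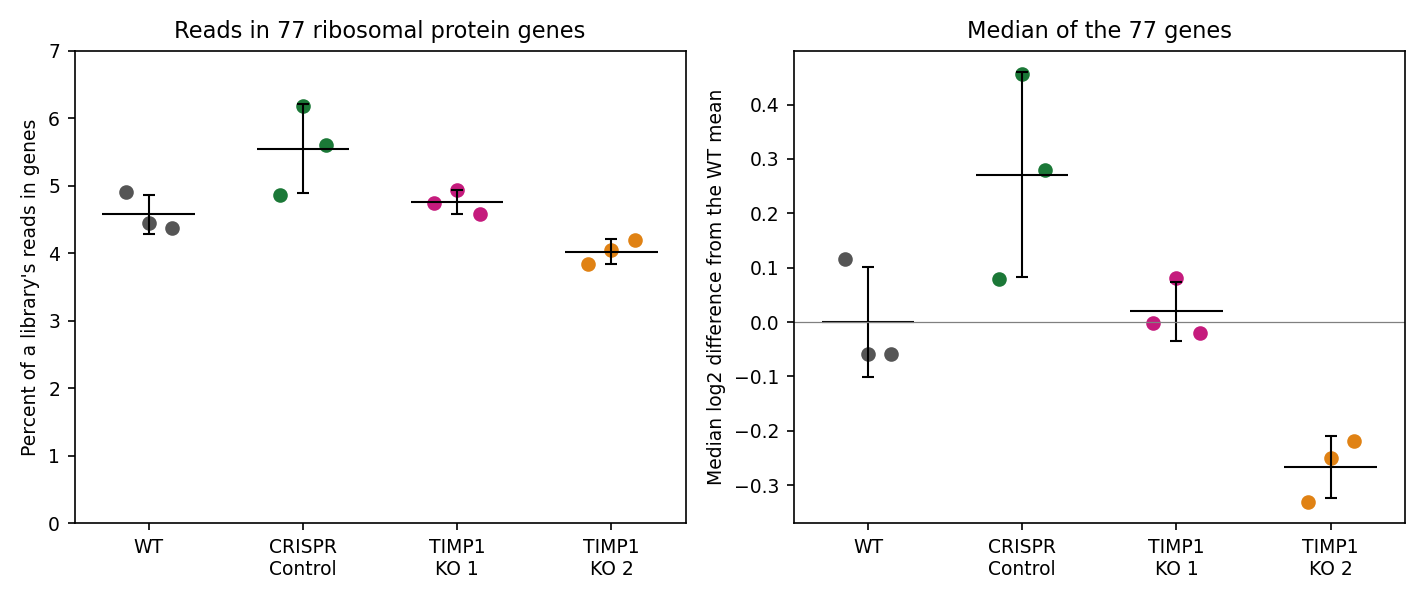
Left, percent of each library's reads in genes that fell in the 77 ribosomal protein genes; right, median over the 77 genes of the log2 difference of a library from the WT mean. Points are libraries, lines are means and bars are SD (n = 3); the KO 2 libraries, from 3.83% to 4.19%, lie below all others, and CRISPR Control spreads from 4.86% to 6.18%.

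RPS16, a small subunit protein, was the most abundant member, with 0.719% to 1.14% of a library's reads. Per length it had 431484 normalised counts per kb of its canonical transcript, and RPLP0, next in order, had 60589. The median member had 15509.8 per kb. Without RPS16 the mean share was 3.80% for WT, 4.54% for CRISPR Control, 3.85% for KO 1 and 3.24% for KO 2, so the order of the lines did not rest on this gene. Among the least abundant members were RPS10 and RPL36A, at 61.6 and 79.0 per kb. Each of these shares exons with an annotated readthrough gene on the same strand, and the part of reads assigned to neither gene in their low counts was not tested. The canonical transcripts of RPL14 and RPL37, of 7136 and 7573 bases, were the longest of the group, so their values per kb are low for their counts.

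The comparison of CRISPR Control with WT asks how an edited line without a knockout differed from unmodified cells. In CRISPR Control 43 of the 77 genes rose and 0 fell by limma's test, with Benjamini-Hochberg adjustment over 15987 genes and a threshold of 0.05. At an unadjusted p under 0.05, 49 differed in either direction. Over all genes 27.2% were called higher and 26.3% lower. The median log2 fold change of the members was 0.28, beside 0.013 for all genes, and 69 of 77 were above 0. DESeq2 and edgeR on the recovered reads also called 0 lower. RPL32 of the large subunit was at 10934, 9373 and 9731 normalised counts in WT and 15787, 20015 and 18419.8 in CRISPR Control. Its log2 fold change was 0.85 (SE 0.093, limma adjusted p = 4.1e-07), the highest of the 77, and 15.3% of its exonic bases overlap CAND2 on the other strand. RPL14, also of the large subunit, rose by 0.81 on the log2 scale (SE 0.080), from 8117, 7996 and 7677 to 12417, 16052 and 13412. In both RPL32 and RPL14 every CRISPR Control library exceeded every WT library. RPL38, whose loss in mice alters translation of Hox mRNAs, rose by 0.79 (SE 0.13), with 5614, 5157 and 5096 in WT and 7745, 12036 and 8246 in CRISPR Control. RPL37A, a zinc finger protein of the large subunit, rose by 0.77 (SE 0.12), from 14126, 11944 and 11462 to 18429.7, 27065 and 19098. The groups did not overlap in RPL38 or RPL37A, and replicate 2 was the highest library in both. For RPL38 59.0% of exonic bases overlap MGC16275 on the other strand, and the strand setting of the counting is not given in the sources used here.

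The size of the change varied more between members than in either knockout line. The interquartile range of the log2 fold changes ran from 0.13 to 0.51 for CRISPR Control, from -0.38 to -0.18 in KO 2 and from -0.062 to 0.10 in KO 1. RPLP0, RPLP2, RPS6, RPS19 and RPS4X were between 0.0089 and 0.10 and not called. CRISPR Control was also the least uniform line. All 77 genes of its replicate 1 were below their own line's mean, and 75 of 77 in replicate 2 were above it, while the median SD of the members on the log2 scale was 0.20 there and 0.11 in WT. Without CRISPR Control replicate 1, 59 members were called higher, among them RPL5, RPL22, RPS19 and RPS4X. Without replicate 2, 32 were, and without replicate 3, 41 were called higher and 1 lower.

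**Figure D2:**
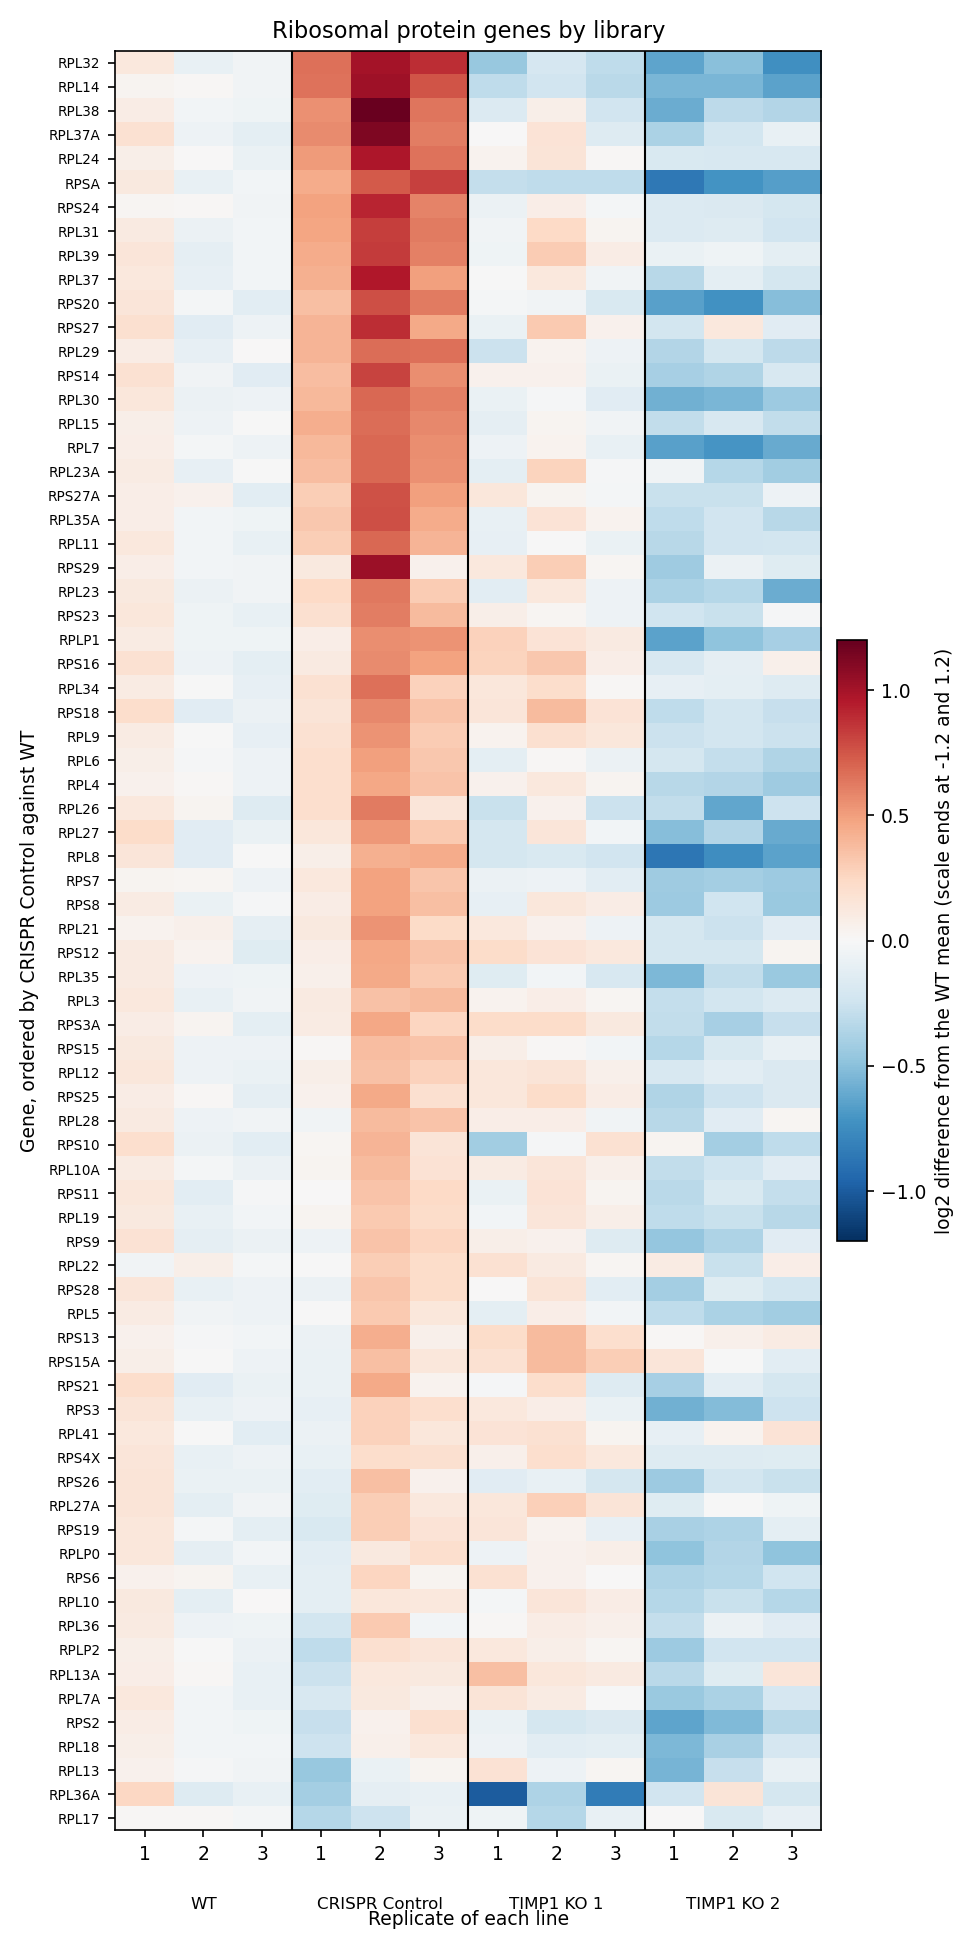
Each row is 1 of 74 of the 77 genes and each column a library; colour gives the log2 difference from the WT mean of that gene, on a scale that ends at -1.2 and 1.2. Rows are ordered by the change in CRISPR Control, where replicate 2 is the highest column, and nearly all rows are blue in KO 2; RPL17 and RPL36A at the foot share exons with readthrough genes.

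In KO 2, 47 of the 77 genes fell against WT and 0 rose, where 27.9% of all genes were called lower and 27.1% higher. At an unadjusted p under 0.05, 50 members differed in either direction, and edgeR and DESeq2 also called 0 higher. The median log2 fold change was -0.27, beside -0.0084 for all genes, and 74 of 77 were below 0. By size, 9 members changed by at least 0.5 on the log2 scale, among them RPL8, RPSA, RPL7, RPS20, RPL32, RPL14, RPL30 and RPLP1. Changes of all genes were spread more widely, with quartiles of -0.34 and 0.41, where those of the members were -0.38 and -0.18. Setting library totals equal left 30 called and quantile normalization 27, all lower, and 30 were called without WT replicate 1, whose members were above their line's mean in 76 of 77 cases.

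RPSA, the laminin receptor precursor that sits at the mRNA exit of the small subunit, was at 26758, 23080.2 and 24078 in WT and 13551, 14946 and 15585 in KO 2. The log2 fold change was -0.75 (SE 0.090, limma adjusted p = 1.2e-06). RPL8, a large subunit protein near the peptidyl transferase centre, fell from 46831, 38659 and 42146 to 23180.2, 25294 and 27238, by 0.75 on the log2 scale (SE 0.10, limma adjusted p = 2.9e-06). The lines did not overlap in RPSA or RPL8. RPL7 fell from 19864, 18465 and 18035 to 11918, 11517 and 12315, by 0.66 (SE 0.077). RPS13, RPS15A and RPL41 were the members above 0 in KO 2, with log2 fold changes of 0.057, 0.0046 and 0.037, not called. RPS13 was at 10075, 9651 and 9532 in WT and 9839, 10158 and 10452 in KO 2, and the lines overlapped.

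In KO 1 few of the 77 genes differed from WT. By limma 3 rose and 4 fell, where 18.0% of all genes were called higher and 17.5% lower. The median log2 fold change was 0.038, beside 0.0032 for all genes, and its sign changed without KO 1 replicate 2. RPS15A and RPS13 were among the members that rose, by 0.28 and 0.27 on the log2 scale, and none of the 3 was called with no minimum on the counts, or without WT replicate 2 or 3 or KO 1 replicate 2 or 3. For RPS15A 9.90% of exonic bases overlap a readthrough gene on the same strand. RPS13 was at 11325, 12679 and 11212 in KO 1, above every WT library. RPL36A, RPL32, RPSA and RPL14 fell. RPL36A had 83.8, 62.7 and 65.7 normalised counts in WT and 34.6, 54.0 and 38.9 in KO 1, with a log2 fold change of -0.74 (SE 0.21), and 43.8% of its exonic bases lie in RPL36A-HNRNPH2. RPL32 was at 7302, 8715 and 8101 in KO 1, RPSA at 20167, 19897 and 19941 and RPL14 at 6421, 6774 and 6354. Each of these lay below the 3 WT libraries, by 0.32, 0.30 and 0.28 on the log2 scale. RPSA, RPL32 and RPL36A lost their calls without WT replicate 1, and RPL32 and RPL36A without KO 1 replicate 1. The count of 7 fell to 3 without KO 1 replicate 1 and to 4 without any other KO 1 library or any WT library, and it was 11 without CRISPR Control replicate 1, which enters this comparison through the shared spread alone.

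The knockout lines differed from each other. Against KO 1, 51 of the 77 genes were lower in KO 2 and 1, RPL36A, was higher, where 20.1% of all genes were called lower and 18.1% higher. The median was -0.30. Without KO 1 replicate 2 the count of 52 was 33, with equal library totals it was 27, and with quantile normalization 24. RPLP1 of the P stalk showed the largest fall among the members with more than 100 normalised counts, from 29211, 27114 and 26029 in KO 1 to 15471, 17319 and 18264 in KO 2. The log2 fold change was -0.69 (SE 0.10, limma adjusted p = 3.7e-05), and the libraries of the lines did not overlap. RPLP1 lies on chromosome 15, whose 513 other tested genes had a median of -0.20 in this comparison, with 38.0% called lower.

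Measured against CRISPR Control instead of WT, both knockout lines were lower. In KO 1, 39 members were lower and 1 higher, where 31.3% and 31.7% of all genes were. In KO 2, 64 were lower and 0 higher, where 34.4% and 33.3% of all genes were, and 64 members had an unadjusted p under 0.05. DESeq2 and edgeR called 0 higher there too. The medians were -0.23 and -0.57. The widest differences were those of KO 2, where 8 members (RPL32, RPSA, RPL14, RPS20, RPL38, RPL7, RPL30 and RPL8) were lower by at least 1 on the log2 scale. Quartiles of all genes in that comparison were -0.47 and 0.59, and those of the members -0.80 and -0.38. RPL32 had 6423, 7077 and 6001 normalised counts in KO 2, and its log2 fold change from CRISPR Control was -1.47 (SE 0.093, limma adjusted p = 8.0e-11). These comparisons share the CRISPR Control libraries. KO 1 thus had 4 members lower against WT and 39 lower against CRISPR Control.

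Averaging the knockout lines against the average of WT and CRISPR Control called 56 of the 77 genes lower and 0 higher, where 33.0% of all genes were called lower and 32.9% higher. At an unadjusted p under 0.05, 59 members differed, and edgeR and DESeq2 also called 0 higher. The median was -0.26, beside 0.0023 for all genes. The KO 2 line had the lowest of the 4 line means for 72 of 77 members, as it had for 30.6% of all genes, and CRISPR Control had the highest for 60 of 77, as it had for 35.6% of all genes. Only 5 of the 77 (RPSA, RPL14, RPL32, RPL8 and RPS7) had all 6 knockout libraries below all 6 others, where 12.4% of all genes did. RPS7, an early assembling protein of the small subunit, met this by a narrow margin in KO 1, with 16133, 16208 and 15458 there, 17322, 17241 and 16216 in WT, 18529, 23684 and 21247 in CRISPR Control and 12609, 12752 and 12527 in KO 2. In the intersection, genes that differed from WT in both knockout lines in the same direction and not in CRISPR Control, there were 0 members, where 10.2% of all genes were. RPSA, RPL14 and RPL32 fell against WT in each knockout line but rose in CRISPR Control, which the definition does not allow. DESeq2 and edgeR also placed 0 members there, and quantile normalization placed 1.

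**Figure D3:**
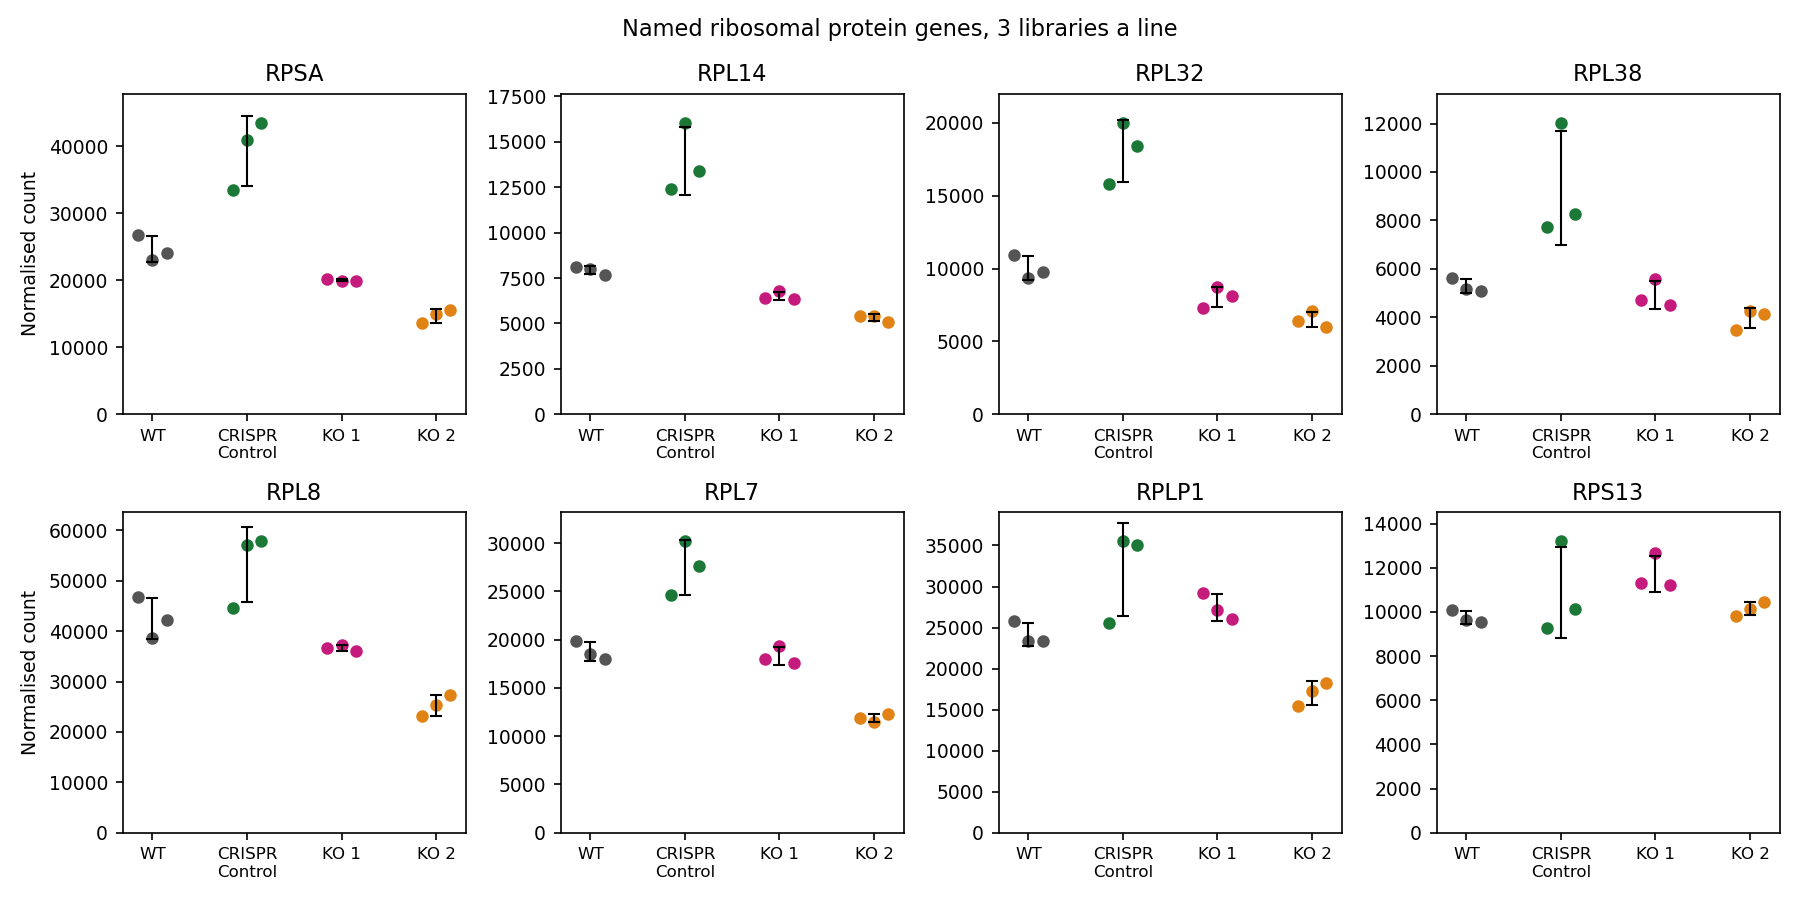
Normalised counts of 8 named genes in each library; bars span the mean ± SD (n = 3) and axes start at 0. RPSA, RPL14 and RPL32 are raised in CRISPR Control and lowered in both knockout lines, RPL8, RPL7 and RPLP1 are lowest in KO 2, and the WT and KO 2 libraries of RPS13 overlap.

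By place on the ribosome, the 5S particle holds RPL5 and RPL11. RPL5 was at 11383, 10347 and 10212 in WT and 8600.1, 8188 and 7961 in KO 2, lower in every KO 2 library, with a log2 fold change of -0.37 (SE 0.081). RPL11 fell by 0.26 in KO 2 and rose by 0.47 in CRISPR Control. RPL5 was not called in CRISPR Control (0.15, SE 0.081), a value that was called without CRISPR Control replicate 1. The fall of RPL11 was not called with equal library totals, with quantile normalization, without WT replicate 1 or without KO 2 replicate 1.

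The P stalk, which recruits elongation factors, consists of RPLP0, RPLP1 and RPLP2 on a base with RPL12. In KO 2 3 of the 4 fell, where 61.0% of the 77 members and 27.9% of all genes did. The falls were 0.51 for RPLP1, 0.44 for RPLP0 and 0.30 for RPLP2 on the log2 scale. RPLP0, often used as a reference gene in quantitative PCR, was at 77165, 65464 and 68910.0 for WT, 64296, 76512 and 81066 for CRISPR Control, 67597, 72981 and 73862 for KO 1 and 50370.5, 54985 and 50205 for KO 2. The KO 2 libraries lay below all 9 others, and the other lines overlapped. The fall of RPLP2 was not called with equal library totals, with quantile normalization, without WT replicate 1 or without KO 2 replicate 1. RPLP1 and RPL12 rose in CRISPR Control, by 0.39 and 0.23.

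Of the 9 proteins that line or surround the peptide exit tunnel, 5 fell in KO 2 and 6 rose in CRISPR Control, where 61.0% and 55.8% of the 77 members and 27.9% and 27.2% of all genes did. RPL39, a very small protein in the tunnel wall, was at 5191, 4364 and 4596 in WT and 6399, 8397 and 7159 in CRISPR Control, with a log2 fold change of 0.63 (SE 0.10). In KO 2 it was at 4466, 4544 and 4339 and not called. RPL22, which is dispensable for translation and often mutated in tumours, had no call in any comparison, nor had RPL17, RPL36, RPL41 and RPS10. Readthrough genes on the same strand overlap 96.9% of the exonic bases of RPL17 and 84.0% of those of RPS10. The counts of RPL17 and RPS10 are therefore uncertain.

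Among the proteins of mRNA entry and decoding, RPS2 and RPS3 fell, by 0.50 and 0.45 on the log2 scale in KO 2, and RPS15 and RPS23 rose in CRISPR Control, by 0.24 and 0.39. At the mRNA exit and platform, RPSA, RPS14, RPS26 and RPS28 fell in KO 2, with log2 fold changes of -0.75, -0.32, -0.31 and -0.26. RPS6, the substrate of S6 kinase downstream of mTOR, was at 13538, 13369.8 and 12274 for WT, 12000.0, 15606 and 13348 for CRISPR Control, 14853, 13540.5 and 13063 for KO 1 and 10085, 10289 and 11063 for KO 2. It was lowest in the KO 2 libraries, which overlapped no other line, with a difference of -0.32 against WT on the log2 scale (SE 0.086). RPS27A, made as a fusion with ubiquitin, rose by 0.52 in CRISPR Control (SE 0.10) and was at -0.20 in KO 2, not called.

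RPS4X, on the X chromosome, was not called against WT in any line. Its KO 2 libraries, at 32173, 32163 and 32378, lay below those of WT, at 39706, 33634 and 34397, with a log2 fold change of -0.15 (SE 0.087). Of 19 members whose loss of a copy is known to cause Diamond-Blackfan anaemia, 13 fell in KO 2 and 10 rose in CRISPR Control. The shares were 61.0% and 55.8% of the 77 members and 27.9% and 27.2% of all genes. The medians of the 19 were -0.29 and 0.32, close to those of all 77. RPS19, the gene most often mutated in that disease, fell in KO 2 by 0.29 (SE 0.11), but not by the test without WT replicate 1 or 2, without KO 2 replicate 1 or 2, or with equal library totals. Large and small subunit genes had medians of -0.28 and -0.26 in KO 2 and 0.32 and 0.23 in CRISPR Control.

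The members lie on 21 chromosomes, and chromosome 3 holds 7 (RPL14, RPL15, RPL24, RPL29, RPL32, RPL35A and RPSA). All 7 rose in CRISPR Control, with log2 fold changes from 0.51 to 0.85, and the 855 other tested genes of chromosome 3 had a median of 0.25, with 44.6% called higher. RPL32 (GRCh38 chr3:12834485-12841582, minus strand), RPSA (chr3:39406716-39426255, plus strand) and RPL14 (chr3:40457292-40468587, plus strand) lie on its short arm. Tested genes other than members within 5 Mb had median changes in CRISPR Control of 0.42, 0.49 and 0.44. In KO 1 the same neighbours had medians of -0.27, -0.12 and -0.13, and those in KO 2 were -0.18, -0.068 and -0.10. RPL15 rose by 0.56, less than its 17 neighbours, whose median was 0.66. Chromosome 3 was not alone in this: all 3 members of chromosome 5 and all 4 of chromosome 2 rose in CRISPR Control. The other tested genes of chromosomes 5 and 2 had medians of 0.25 and 0.19, with 45.4% and 40.9% called higher.

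Chromosome 8 holds RPL7, RPL8, RPL30 and RPS20, and all 4 fell in KO 2, with log2 fold changes from -0.75 to -0.52. The 530 other tested genes of chromosome 8 had a median of -0.15, with 37.5% called lower, where 27.9% of all genes were. The 93 within 5 Mb of RPL8 had a median of -0.41. All 4 members rose in CRISPR Control, by 0.32 to 0.59, where 36.6% of the 530 other genes were called higher. The 6 members of chromosome 17 also all fell in KO 2, with a median of -0.40. Its 974 other tested genes had a median of -0.15, with 36.8% called lower. Chromosome 15 holds 3 members, RPLP1 among them, and all 3 fell in KO 2. Its 513 other tested genes had a median of -0.19, with 40.4% called lower. Across the 77 members, Pearson's r between a member's change and the median of its neighbours was 0.51 for CRISPR Control, 0.54 for KO 2 and 0.17 in KO 1, as a description across genes that share libraries and, in part, neighbours. Without chromosomes 3 and 8 it was 0.29, 0.46 and -0.074 over 66 members. These 66 members still included those of chromosomes 2, 5, 15 and 17. Over the 66 the median log2 fold change was 0.23 in CRISPR Control and -0.26 in KO 2. The median of member minus neighbours was 0.25 in CRISPR Control, with 69 of 77 above 0, and -0.28 in KO 2, with 75 of 77 below 0. Copy number was not measured here, and its part in these values was not tested.

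**Figure D4:**
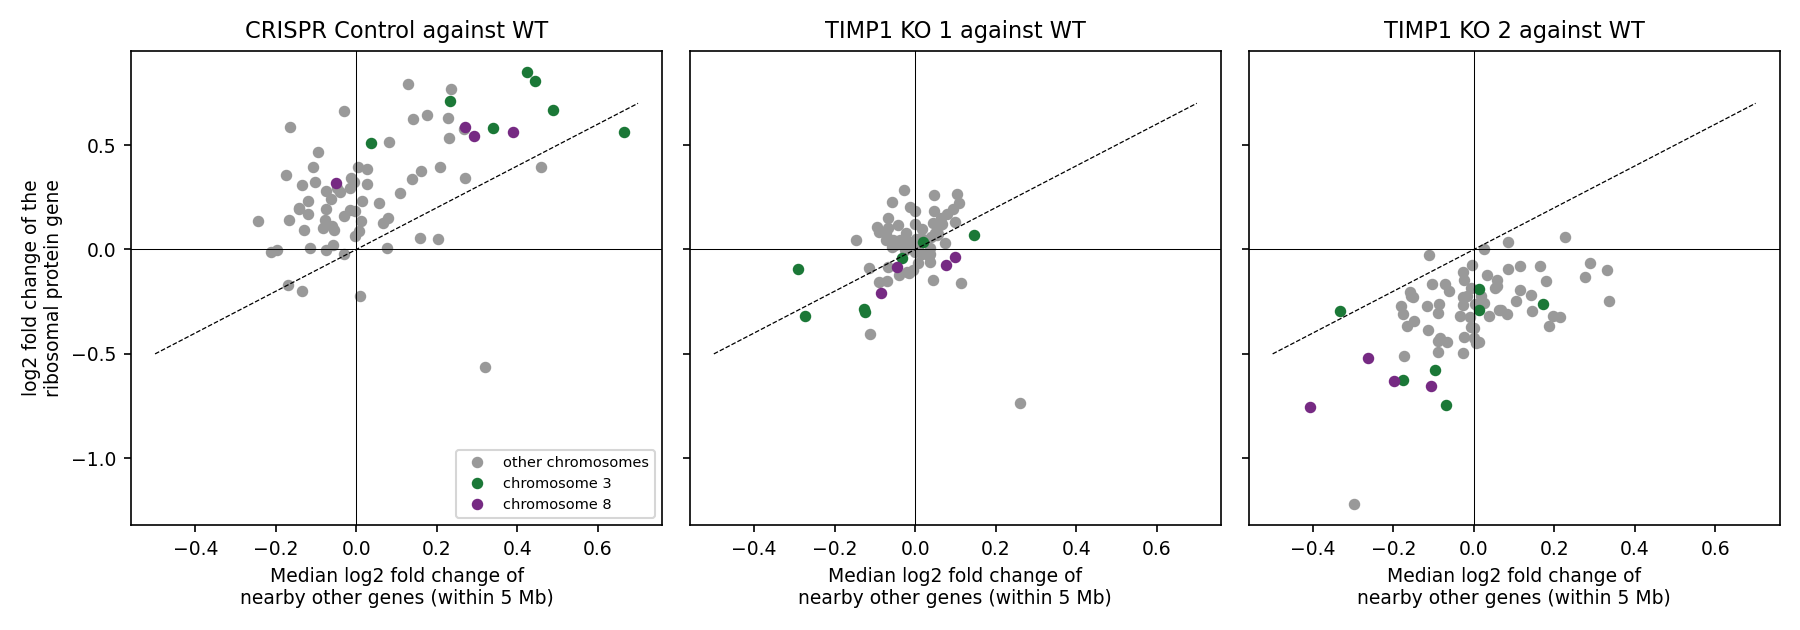
Each point is 1 of the 77 genes, its log2 fold change against WT plotted over the median log2 fold change of the other tested genes within 5 Mb; the dashed line marks equality. In CRISPR Control 69 of 77 points lie above the line and in KO 2 75 lie below it, and genes of chromosomes 3 and 8 are drawn in their own colours.

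Ribosomal protein genes have many processed pseudogenes, 1139 rows of the table, which took 0.0484% to 0.0620% of reads as line means. Of the 77 members, 12 had under 50% of their 100-base windows free of an exact match to another gene's transcript, so that their reads could be split. RPSA and RPL7 were among the 12, with 40.9% and 46.6% of windows free. For RPL30, 51.4% of exonic bases overlap RPL30-AS1 on the other strand. In all, 39 members had at least 90% of such windows and at most 10% of exonic bases in another gene. Of these 39, 23 fell in KO 2 and 19 rose in CRISPR Control, where 27.9% and 27.2% of all genes did. The medians of the 39 were -0.29 and 0.28. Adding the pseudogene reads to their parents gave 47 calls in KO 2 and 44 in CRISPR Control.

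RACK1 and FAU also belong to the ribosome but fall outside the naming rule. RACK1, a scaffold of the small subunit, was at 34766, 28479 and 30369.7 for WT, 35852, 41713 and 44044 for CRISPR Control, 26396, 27509.7 and 27093 for KO 1 and 22475, 23229 and 23287 for KO 2. It was highest in CRISPR Control and lowest in KO 2, with log2 fold changes against WT of 0.38 and -0.44, both called. FAU, made as a ubiquitin-like fusion, rose by 0.33 in CRISPR Control and fell by 0.30 in KO 2.

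Among paralogs outside the rule, the lines differed by gene. RPS27L, a close relative of RPS27, was at 271, 362 and 314 for WT, 555, 746 and 542 for CRISPR Control, 537, 666 and 504 for KO 1 and 504, 429.6 and 426 for KO 2. All 9 edited libraries exceeded the 3 WT libraries, with log2 fold changes of 0.95, 0.85 and 0.53, all called. RPL7L1, a homologue of RPL7 that acts in ribosome assembly, was lower than WT in all 3, by 0.30, 0.19 and 0.55. RPL39L, known from testis and some tumours, fell in KO 2 (-0.52, SE 0.10), where RPL39 was not called. RPL36AL rose in KO 2 by 0.34. RPL22L1 and RPL26L1 rose in CRISPR Control, by 0.49 and 0.44, and RPL26L1 fell in KO 2 by 0.36. RPL3L, a muscle gene, did not exceed 19.2 normalised counts, and RPL10L, a testis gene, was at 0 in all libraries.

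Genes that build and run the ribosome were compared in the same way, and the calls of each list stand beside those of all genes. Over all genes the shares called higher and lower were 27.1% and 27.9% in KO 2, 18.0% and 17.5% in KO 1, and 27.2% and 26.3% in CRISPR Control. Of 108 tested ribosome assembly factors, 71 fell in KO 2 and 63 in KO 1, with 2 higher in each, and 48 rose in CRISPR Control with 11 lower. Their medians were -0.38, -0.25 and 0.18. In KO 1, 63 of 108 assembly factors and 4 of 77 ribosomal proteins were called lower than WT. TCOF1, the nucleolar protein of Treacher Collins syndrome, was at 5460.1, 5323 and 5377 in WT, 3361, 3153 and 3295 in KO 1 and 2194, 2285 and 2266 in KO 2. RRP9, a component of the U3 particle, was at 2503, 2205 and 2220.3, 1318, 1292 and 1169 and 993, 1097 and 1204 in the same order. Neither gene's knockout libraries overlapped WT, with log2 fold changes in KO 2 of -1.26 and -1.07, and both rose in CRISPR Control, by 0.46 and 0.69. NMD3, the export adaptor of the large subunit, rose in all 3 edited lines, by 0.49 in KO 2, 0.30 in KO 1 and 0.24 in CRISPR Control.

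Of 76 tested mitochondrial ribosomal proteins, 37 fell and 1 rose in KO 2, 19 fell and 0 rose in KO 1, and 21 rose and 6 fell in CRISPR Control. The rises in CRISPR Control were near the share of all genes, 27.2%. Their medians were -0.24, -0.14 and 0.14. MRPL11 and MRPS25 showed the lowest values of the knockout lines against WT and CRISPR Control, -0.76 and -0.73, and MRPS6 and MRPS21 the highest, 0.39 and 0.27. Neither MRPS6 nor MRPS21 was called against WT in a knockout line, and both fell in CRISPR Control, by 0.60 and 0.27. Of 37 tested translation factors, 3 rose and 18 fell in KO 2, 4 rose and 12 fell in KO 1, and 17 rose and 3 fell in CRISPR Control. TPT1 and EIF4A2 rose in both knockout lines and in CRISPR Control, by 0.34 and 0.41 in KO 2. EIF4A1 and EIF3C had the lowest values of the knockout lines against the others, -0.63 and -0.63, but their counts are uncertain, because EIF4A1 lies within a readthrough gene and EIF3C has a near-identical copy.

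Of 12 tested RNA polymerase I genes, 1 rose and 5 fell in KO 2, 0 rose and 3 fell in KO 1, and 4 rose and 1 fell in CRISPR Control. Of all genes, 27.9% were lower in KO 2 and 17.5% in KO 1. UBTF, the upstream binding factor of ribosomal RNA genes, was at 7219, 7203 and 7116 for WT, 6962, 6822 and 6849 for KO 1 and 4394, 4333 and 4799.5 for KO 2. The KO 2 libraries lay below all others of these, with a log2 fold change from WT of -0.67, and KO 1 was at -0.062, not called. POLR1E was lower in both, by 0.47 and 0.93, and rose in CRISPR Control by 0.34. TAF1D rose in KO 2 by 0.49 and in CRISPR Control by 0.33. TAF1C fell in CRISPR Control by 0.70 and was not called against WT in a knockout line.

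Of 25 tested regulators of TOP mRNAs, 4 rose and 12 fell in KO 2, 2 rose and 4 fell in KO 1, and 3 rose and 7 fell in CRISPR Control. The rises in KO 2 were below the 27.1% of all genes, and the falls in CRISPR Control near the 26.3%. LARP1, which binds the TOP motif, was at 12692, 12165 and 13086 in WT, 9399, 9683 and 9539 in KO 1 and 9509, 9525 and 8979.6 in KO 2, below WT in every knockout library. RPS6KB2, an S6 kinase, fell by 0.42 and 0.34 in KO 1 and KO 2. DEPTOR, an inhibitor of mTOR, rose by 0.47 and 0.53. EIF4EBP1, an inhibitor of translation, fell in CRISPR Control by 0.47 and was not called against WT in a knockout line.

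Among 13 snoRNA host genes, many of which carry a TOP motif, 5 rose and 3 fell in KO 2, 3 rose and 3 fell in KO 1, and 3 rose and 5 fell in CRISPR Control. Of all genes, 27.1% were higher and 27.9% lower in KO 2. ZFAS1 rose in KO 1 and KO 2, by 0.83 and 1.04, and SNHG20 rose in KO 2 by 0.46 and fell in CRISPR Control by 0.49. SNHG16 fell in KO 2 by 0.36 and rose in CRISPR Control by 0.22. SNHG6 rose in CRISPR Control by 0.73 and was not called against WT in a knockout line. Genes of growth arrest and stress were compared as well. CDKN1A, an inhibitor of cyclin-dependent kinases, was at 1183, 1160.1 and 1078 in WT, 3430.1, 3401 and 3427 in KO 1 and 3103, 3445 and 3300.2 in KO 2. It rose in all 3 edited lines, by 1.58 in KO 1, 1.52 in KO 2 and 0.39 in CRISPR Control. GADD45A also rose in all 3, by 0.60, 2.48 and 0.77 in the same order. GDF15 fell by 2.13 in KO 1, rose by 2.17 in CRISPR Control and was at 0.12 in KO 2, not called. SESN2 rose by 1.39 in CRISPR Control and by 0.30 in KO 2, and was at -0.042 in KO 1, not called.

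**Figure D5:**
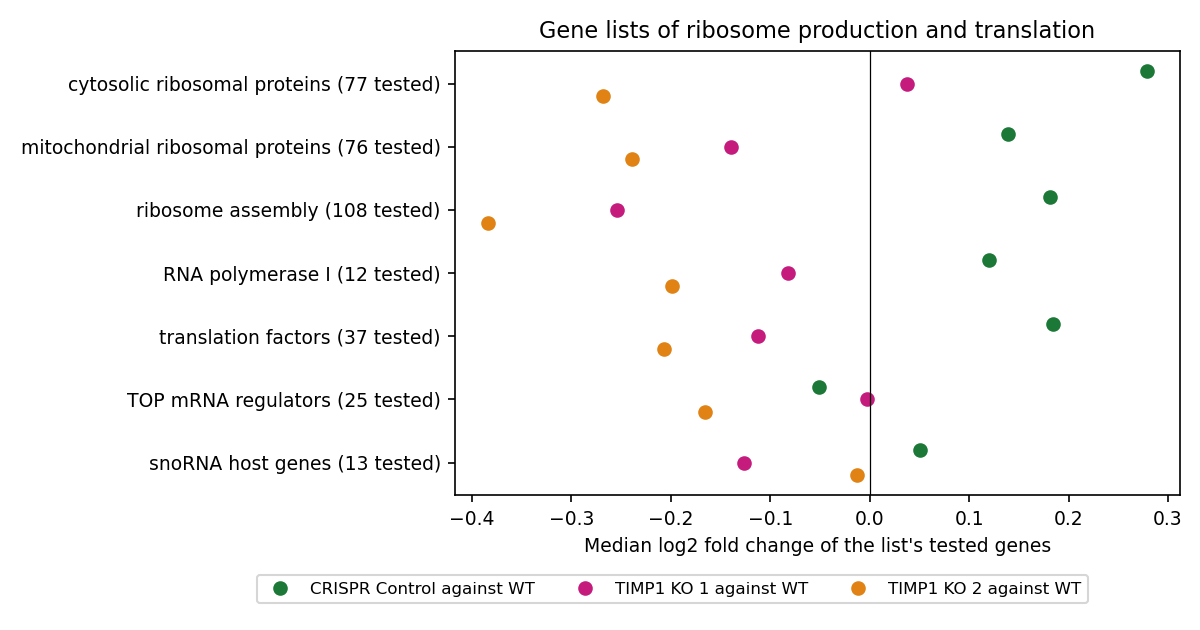
Median log2 fold change against WT of the tested genes of each list, 1 point for each edited line. The cytosolic ribosomal proteins have medians of 0.28 for CRISPR Control, 0.038 for KO 1 and -0.27 for KO 2, while ribosome assembly factors are below 0 in both knockout lines.

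Over the 12 libraries, the 5 genes outside the group whose log2 values most resembled the summed level of the members were NTPCR, POLR2H, AC016739.1, RPS3AP26 and LSM7, among 11568 with a mean of at least 100. Pearson's r ran from 0.96 to 0.97, as a description of 12 libraries in 4 lines. NTPCR was at 874, 777 and 782 for WT, 795, 1085 and 1008 for CRISPR Control, 810.3, 833 and 823 for KO 1 and 528, 612 and 618 for KO 2. RPS3AP26 is a processed pseudogene of RPS3A, with which it may share reads.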

How the data were processed

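The authors trimmed reads with Cutadapt, aligned them to GRCh38 using STAR, assigned them to genes using featureCounts and scaled the counts by the size factors of DESeq2. The deposited signal is therefore a normalised count, whole reads times 1 step per library, and reads were recovered whole for 100% of positive values within 0.01. Strand setting, treatment of reads with several matches and annotation release are not given in the sources used here. A blank line and 4 columns of line means were left out.

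limma 3.58.1 (R 4.3.3) was run on log2(normalised count + 1) of 15987 genes with a mean of at least 10, with 4 line means fitted to all 12 libraries, eBayes with a trend, two-sided tests, Benjamini-Hochberg adjustment over all genes and a threshold of 0.05. Log2 fold changes of low genes are understated by the pseudocount of 1. The fit was tested on simulated data. edgeR 4.0.16 and DESeq2 1.42.0 on recovered reads, other scalings, filters and left-out libraries were alternatives. Groups and replicate numbers came from sample titles. Members and gene lists were chosen with earlier results of these data known. Named genes were, for KO 1, KO 2 and CRISPR Control against WT and for the knockout lines against the others, the 4 highest and 4 lowest called members, plus 12 fixed members, tested paralogs, the 2 highest and 2 lowest called genes of each other list for the knockout lines against the others, and the 5 most similar genes. Some members and genes that these rules name are not reported here by name. Other members are named to complete a role, a chromosome or a count, and were chosen after their values were seen. Coordinates and lengths are of GENCODE v44, which matched 99.1% of identifiers without version and need not be the authors' release.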

Additional observations from a re-analysis of the deposited data

Results flagged for a closer look

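Each knockout line was set against a shared set of WT libraries, and the results below were picked out because a direct limma test of KO 2 against KO 1 found that they differed. Values are log2 differences of KO 2 from KO 1. The count of ribosomal protein genes that differed was 52 of 77. Among large subunit and stalk members the differences were -0.69 for RPLP1, -0.62 for RPL7, -0.54 for RPL8, -0.46 for RPLP0, -0.37 for RPLP2, -0.35 for RPL5, -0.31 for RPL32, -0.29 for RPL14 and 0.64 for RPL36A. Among small subunit members they were -0.45 for RPSA, -0.40 for RPS6, -0.32 for RPS19, -0.28 for RPS4X and -0.28 for RPS15A. Outside the group, the lower genes in KO 2 were at -0.61 for UBTF, -0.54 for TCOF1, -0.50 for RPL39L, -0.46 for POLR1E, -0.39 for MRPL11, -0.38 for SNHG6, -0.36 for RPL7L1, -0.31 for EIF4EBP1 and -0.23 for RACK1, and TIMP1 itself was at -0.46. The higher genes were at 0.29 for TAF1D, 0.34 for SESN2, 0.80 for EIF4A1, 1.88 for GADD45A and 2.25 for GDF15. For RPL36A and EIF4A1 the counts are low and shared with readthrough genes. No group held enough libraries for a test of single outlying libraries.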

How the results depend on the processing

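Direction was followed for TIMP1 and the members that the naming rules picked, not for members named afterwards. It was followed in KO 1, KO 2 and CRISPR Control against WT and in the knockout lines against the others. Of 2108 values from the alternative runs, 0 reversed a call, 66 were no longer called and 26 were newly called. Sign changes of values that were not called in either run were not counted as reversed. Counts of called members moved as follows. Under a minimum absolute log2 fold change of 0.5 they were 1 (of 7) in KO 1, 9 (of 47) in KO 2 and 20 (of 43) in CRISPR Control against WT, 19 (of 40) in KO 1 and 42 (of 64) in KO 2 against CRISPR Control, 6 (of 52) in KO 2 against KO 1 and 8 (of 56) for the knockout lines against the others. The shares of all genes under this minimum are not given here. With no minimum mean the 7 in KO 1 became 4, all lower. With equal library totals the 47 in KO 2 became 30 and the 52 against KO 1 became 27. With quantile normalization these were 27 and 24, and the intersection held 1 member in place of 0. Leaving out each library in turn gave 3 to 11, 30 to 57, 32 to 59, 31 to 52, 61 to 70, 33 to 65 and 47 to 64 in the order of the first list, and 0 in the intersection. The cause of these changes was not tested. Equal library totals moved the median of all genes in KO 2 against CRISPR Control to 0.11 from -0.0084, and changes there are relative to that shift. Replicate numbers did not pair the libraries: 2 of 18 same-numbered pairs deviated together with r over 0.1, and 4 of 12 libraries were closest to their own number. With the replicate block the members called against WT numbered 44 for CRISPR Control, 47 for KO 2 and 7 for KO 1, 40 and 64 in KO 1 and KO 2 against CRISPR Control, 54 in KO 2 against KO 1 and 56 for the knockout lines, which moved no count by over 1.5 times. RPS19 lost its call in the last. Of 154 medians, 1 changed sign, KO 1 against WT without KO 1 replicate 2. Depth was not limiting for most members, but RPS10 and RPL36A had under 100 normalised counts.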
